A study of Homo sapiens with 12 samples.

Results

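Unirradiated HaCaT cultures matched to the end of a long blue light experiment were compared, gene by gene, with unirradiated cultures matched to its start. HaCaT is a line of human skin keratinocytes that became immortal spontaneously, and the labels give its genotype as wild-type. The comparison uses 4 of the 12 libraries of the series, 2 of group dark_3 and 2 of group dark_42, chosen by their labels as the dark controls of the cultures given 3 and 42 irradiations. In the whole study, plates were kept dark or exposed to blue light of 408 nm at 4.6 mW/cm2 and 50 J/cm2 per session, 3 sessions a week for up to 14 weeks. RNA was measured after 3, 14 and 42 irradiations with 2 libraries a group (dark_3, blue_3, dark_14, blue_14, dark_42, blue_42). The groups named here shared a medium of DMEM with 10% fetal bovine serum, glutamine, penicillin and streptomycin. By their labels both dark groups were controls without light, here called early (dark_3) and late (dark_42). Time in culture and whatever else differed between the 2 harvests cannot be told apart. The labels do not give harvest dates or say whether dark plates were also moved into phosphate-buffered saline, how often cells were passaged, or whether the letters a and b mark separate cultures. The p-values below therefore rest on how far the libraries of a group lie apart, and that distance may be technical only.

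Keratinocytes sense foreign nucleic acid through cytosolic receptors and answer interferons by switching on a shared set of antiviral genes through STAT and IRF factors bound at interferon-stimulated response elements. Bacterial products and interleukin-1 act largely through NF-kappaB, which drives acute-phase proteins, antimicrobial proteins, chemokines and its own inhibitors. In healthy epidermis, basal cells that express KRT5 and KRT14 divide, then leave the cycle and build the cornified barrier. Heat shock factor activates chaperone genes, and E2F factors drive the genes of DNA replication.

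The libraries were made from the 3' ends of transcripts (QuantSeq 3' mRNA-Seq FWD), so a count stands for a tag near the end of a transcript and levels are given as CPM, the counts scaled to a common library total, without length scaling. Depth was 6452030 and 7027034 counts in dark_3 a and b, and 7666289 and 7262303 in dark_42 a and b. The other libraries held 2073160 (blue_14 b) to 8183941 (blue_42 b). In the 4 dark libraries compared, 3 counts corresponded to 0.384 to 0.476 CPM. The dark_3 libraries were closer to each other (chi-square per degree of freedom 1.64) than the dark_42 libraries (8.57). The 16 keratinocyte markers fixed for the label check were all present, and summed to 8109 and 8135 CPM in dark_3 against 7053 and 6623 CPM in dark_42. Markers of other cells summed to at most 6.63 CPM for leukocytes (PTPRC at 0 in 3 of the 4 libraries and 0.128 CPM in dark_42 a, CD3D at 0), 7.30 CPM for fibroblasts (COL1A2 and POSTN at 0) and 1.87 CPM for erythroid cells in these 4 libraries, and ALB was at 0. Most of the fibroblast sum was COL1A1, at 3.33 and 3.89 CPM in dark_3 against 6.02 and 5.72 CPM in dark_42, with 0 of 3 tested fibroblast markers called. Of the leukocyte markers, CD14 was at 1.11 and 1.15 CPM against 1.79 and 2.60 CPM, and CD68 at 0.793 and 0.288 CPM against 2.18 and 2.73 CPM. MS4A1, CD3E and LYZ (named after their values were seen) were at 1.04, 0.130 and 0.130 CPM in dark_42 b. All of these were at 0 in dark_3 a, dark_3 b and dark_42 a. Endothelial markers summed to 0.634 and 1.58 CPM in dark_3 against 2.82 and 3.12 CPM in dark_42, and the 1 tested, CDH5, was called higher. Melanocyte markers summed to 12.05 to 16.3 CPM, most of it MITF, with MLANA, TYR and TYRP1 at 0. Glia-associated genes summed to 282 and 294 CPM against 245 and 253 CPM, most of it MBP and CNP, with 0 of 5 tested called. Neuron-associated genes were at 198 and 203 CPM against 138 and 105 CPM, most of the dark_3 level being NEFL, with 2 markers called higher and 2 lower. Leukocyte markers were lower in dark_3 (2.06 and 1.58 CPM against 4.10 and 6.63 CPM, with 1 of 2 tested called higher), and the part of these cell markers in the results was not tested.

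Of 12878 genes with enough counts to test, 2284 (17.7%) differed between dark_42 and dark_3 at an adjusted p under 0.05 (edgeR's quasi-likelihood test with Benjamini-Hochberg adjustment, the test behind every adjusted p here). Higher in dark_42 were 1220 (9.47%) and lower were 1064 (8.26%). The median log2 difference of all tested genes was 0.02. Among the called genes, 396 were more than 2-fold higher and 166 more than 2-fold lower, and 126 and 24 differed more than 4-fold. Both dark_42 libraries lay on the same side of both dark_3 libraries in all 2284, and in 62.4% of all tested genes, called or not. The count depended on which library was left out: it was 765 without dark_3 a, 840 without dark_3 b and 833 without dark_42 b, but 2567 without dark_42 a. The list counts below are to be read against the shares of all tested genes: 17.7% for either direction, 9.47% for rises and 8.26% for falls. Of the 228 called genes that the naming rule chose, 82 were called in all 12 fits that each left out 1 library. The other 146 were lost without at least 1 of the 4 libraries compared: 120 without dark_3 a, 124 without dark_3 b, 27 without dark_42 a and 121 without dark_42 b. A called gene given below with its CPM levels held in all 12 fits unless libraries are named beside it. With the replicate block, CD74, KRT81, IVL, RFC4 and RPS9 lost their calls among the genes named below. DESeq2 did not call DHX58, ERAP2, NLRC5, CEACAM1, CASP1, IL1R1, CCL26, DDIT3, AKR1B10, RFC4, CDC25C, GADD45A, AEN, PRDM1, CASP14, ELOVL4, TGM1, CERS3, BTC, TCF7L2, FBN1, TPM2, MYL9, PLAUR, BNIP3L, RPS9, B3GNT3 or GABARAPL1 among them. WNT11, SAA4, CFI, IFI44L, MX2, CXCL5, EGLN3, SP5 and TWIST1 got no adjusted p from DESeq2, so it did not call them either. Protein-coding genes made up 2177 of the called genes, antisense genes 39 and long intergenic non-coding RNAs 26. In bulk RNA, a lower level from fewer cells of a kind and from less RNA per cell cannot be told apart. Log2 differences are dark_42 minus dark_3 with their standard errors, from 2 libraries each.

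**Figure D1:**
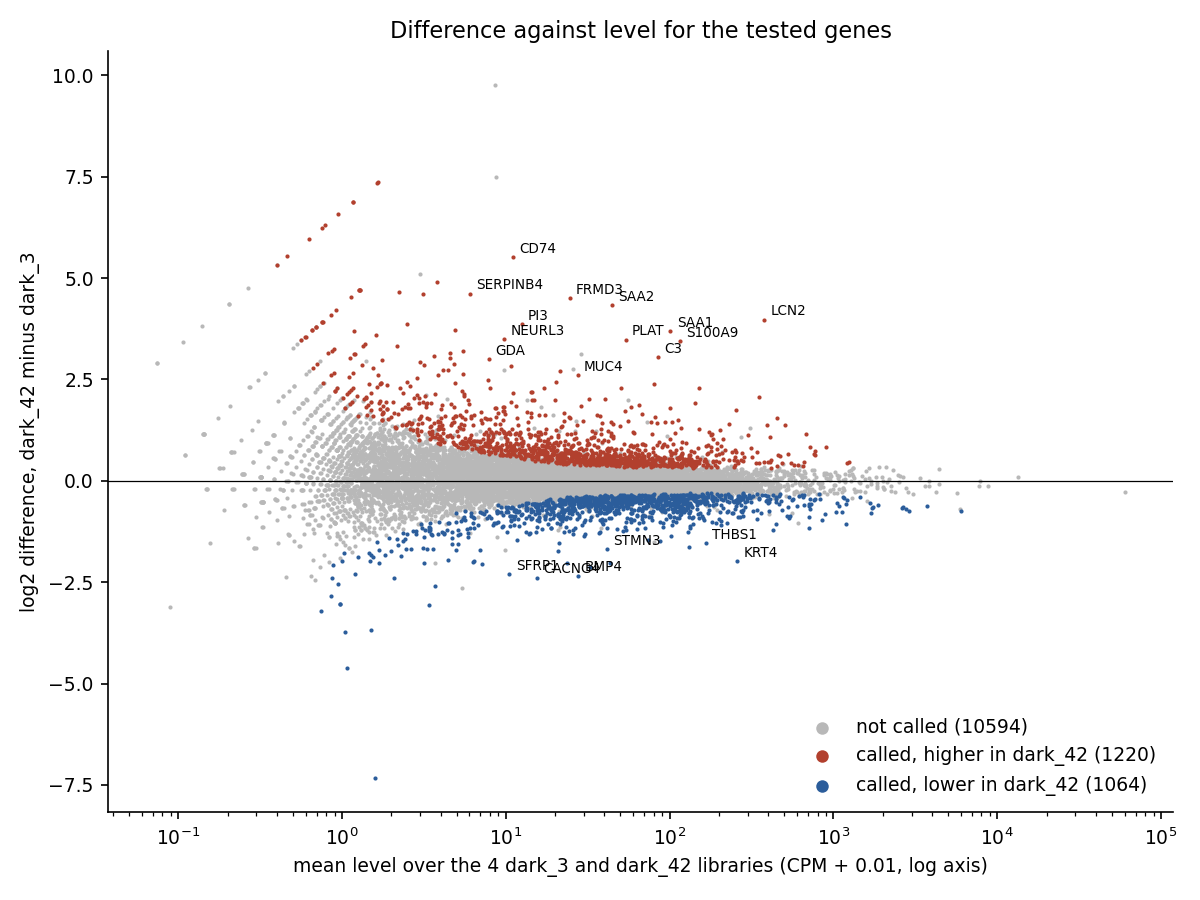
Log2 difference between dark_42 and dark_3 (vertical axis) against the mean level over the 4 libraries (horizontal axis, CPM, log scale) for the 12878 tested genes, each point a gene. Red points mark the 1220 genes called higher and blue points the 1064 called lower; differences beyond 4-fold are more numerous above 0 (126) than below it (24).

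Interferon-stimulated genes were higher in dark_42. Of 40 antiviral effectors tested, 30 rose and 0 fell, with a median log2 difference of 1.10 (0.02 over all tested genes). The list held 23 to 30 such calls when any 1 of the 12 libraries was left out. The promoters of 3 effectors are printed to show the element that interferon signalling uses, since the results below turn on this group. Each runs from 250 bases before to 50 after the start of the gene (RefSeq, GRCh38.p14, the first entry of the gene in the table), 5′ to 3′ on the strand of the gene, with every match to GAAANNGAAA, on either strand, in capitals.
IFI27, chr14:94110486-94110785, plus strand: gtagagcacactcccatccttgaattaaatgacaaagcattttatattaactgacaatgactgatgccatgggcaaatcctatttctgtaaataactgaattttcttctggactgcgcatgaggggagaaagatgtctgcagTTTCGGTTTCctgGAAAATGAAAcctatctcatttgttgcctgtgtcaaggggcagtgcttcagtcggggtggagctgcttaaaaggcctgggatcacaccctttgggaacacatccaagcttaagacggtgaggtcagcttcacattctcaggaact
ISG15, chr1:1013247-1013546, plus strand: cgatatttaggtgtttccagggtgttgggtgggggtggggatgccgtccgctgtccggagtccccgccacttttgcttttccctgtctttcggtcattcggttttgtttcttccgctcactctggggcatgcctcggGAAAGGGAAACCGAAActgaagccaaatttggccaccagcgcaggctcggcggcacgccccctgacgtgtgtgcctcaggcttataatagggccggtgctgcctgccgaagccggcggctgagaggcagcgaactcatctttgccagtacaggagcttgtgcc
MX1, chr21:41420308-41420607, plus strand: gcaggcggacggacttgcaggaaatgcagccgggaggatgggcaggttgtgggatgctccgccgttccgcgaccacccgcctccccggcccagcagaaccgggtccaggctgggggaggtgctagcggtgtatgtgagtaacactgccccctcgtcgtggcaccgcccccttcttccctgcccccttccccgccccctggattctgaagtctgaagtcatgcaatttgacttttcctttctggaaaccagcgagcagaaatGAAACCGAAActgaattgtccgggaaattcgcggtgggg
IFI27 and ISG15 each hold 2 matches, between 108 and 86 and between 113 and 98 bases before the start, those of ISG15 overlapping, and MX1 holds 1 match just after its start. The letters occurred in 18 of the 25 called effectors that had a promoter in the table (72%) and in 6 of the 8 not called (75%). They occurred in 4.38% of all 27305 genes with a promoter of this length, and in 4.02% of the tested genes with one. In these shares and those of the motifs below, a gene counted when any of its promoter entries held a match. A match is a description of the letters and not a site of binding.

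OASL (2'-5'-oligoadenylate synthetase like, a cofactor of RNA sensing; ENSG00000135114, chr12:121019111-121039242, minus strand) was at 59.9 and 59.5 CPM early, in dark_3, and at 242 and 209 CPM late, in dark_42. Both late libraries lay far above both early ones, with a log2 difference of 1.92 ± 0.12 (adjusted p = 6.02e-09). CMPK2, a mitochondrial nucleotide kinase, went from 8.40 and 7.78 CPM to 32.4 and 31.5 CPM, a difference of 1.98 ± 0.17 (adjusted p = 1.93e-07). IFI27, a mitochondrial protein used as a marker of interferon exposure, was low at 1.27 and 1.73 CPM and reached 11.9 and 6.89 CPM, 2.63 ± 0.38 (adjusted p = 0.0001). MX1, a GTPase that blocks virus replication, stood at 12.8 and 13.3 CPM against 34.7 and 22.5 CPM, 1.13 ± 0.18 (adjusted p = 0.00028). ISG15, a ubiquitin-like modifier, was at 59.5 and 58.8 CPM against 128 and 89.5 CPM, 0.88 ± 0.18 (adjusted p = 0.0037). In MX1 and ISG15 the groups did not overlap, though dark_42 a was well above dark_42 b. BST2, which tethers budding virus, rose from 1.11 and 0.432 CPM to 3.84 and 4.55 CPM, 2.44 ± 0.48 (adjusted p = 0.0015). Where counts were few, ratios are given with their 95% counting interval: IFI44L had 2 counts in dark_3 and 34 in dark_42, a depth-corrected ratio of 14.5 (3.73 to 124.8). MX2 had 1 count against 16, a ratio of 13.7 (2.13 to 573.5).

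The 10 effectors not called included IFIT1. IFIT1, which binds viral RNA caps, was at 47.4 and 48.2 CPM early and 71.3 and 46.8 CPM late, 0.30 ± 0.18 (adjusted p = 0.28), and the groups overlapped. Its difference took the opposite sign, -0.034, without dark_42 a. IFI44L was not called without dark_3 b or dark_42 a, and the call of MX2 ended when any 1 of the 4 dark libraries compared was left out.

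Cytosolic sensors of nucleic acid rose in 8 of 12 tested members, and none fell (median 0.75). The count was 5 without dark_3 a and 5 without dark_3 b. DDX60, a helicase that assists RNA sensing, was at 118 and 116 CPM early and 369.7 and 414 CPM late, a log2 difference of 1.75 ± 0.14 (adjusted p = 1.01e-07). RIGI, the sensor of short double-stranded RNA, was at 29.5 and 29.2 CPM against 80.0 and 84.5 CPM, 1.49 ± 0.14 (adjusted p = 4.47e-07). IFIH1, the sensor of long double-stranded RNA, was at 36.3 and 35.9 CPM against 91.1 and 74.1 CPM, 1.19 ± 0.14 (adjusted p = 1.02e-05). All 3 were separated between groups. TLR3, the endosomal receptor of double-stranded RNA, STING1, the adaptor of DNA sensing, and DHX58, a regulator of RIGI and IFIH1, differed by 1.15, 0.84 and 0.81 on the log2 scale and passed the test.

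Among 8 interferon transcription factors, 5 rose (median 0.52), a count that was 3, 2 and 3 without dark_3 a, dark_3 b and dark_42 b. IRF1, an activator of interferon and MHC genes, was at 118 and 122 CPM against 246 and 324 CPM, 1.25 ± 0.20 (adjusted p = 0.0012). IRF7, the amplifier of type I interferon, and IRF2, a relative of IRF1, differed by 0.99 and 0.49. Of the ligands and receptors, 8 of 14 could be tested, with 2 higher and 1 lower. IFNGR1, the binding chain of the interferon gamma receptor, was at 15.7 and 15.1 CPM against 33.4 and 35.6 CPM, 1.16 ± 0.14 (adjusted p = 1.11e-05), and JAK1, its kinase, differed by 0.59. TYK2, a kinase of the type I receptor, fell from 27.0 and 25.5 CPM to 17.7 and 17.3 CPM, -0.58 ± 0.14 (adjusted p = 0.0084), a call lost without dark_3 a, dark_3 b or dark_42 b. The interferon genes IFNB1, IFNL2 and IFNL3 had 0 counts in every library of the series (named after their counts were seen). IFNL1 had 4 and 5 counts in dark_3 and 2 and 2 in dark_42, and IFNE had 5 and 0 against 1 and 3. IFNK had 0 in these 4 libraries, and none of these genes had enough counts to test.

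Antigen presentation genes were higher too. For MHC class I and its peptide supply, 11 of 17 tested members rose and 0 fell (median 0.61); without dark_42 b, 5 rose. PSMB9, a subunit of the immunoproteasome, was at 83.7 and 79.1 CPM against 133 and 182 CPM, 0.95 ± 0.14 (adjusted p = 0.00012). ERAP1, which trims peptides in the endoplasmic reticulum, was at 19.0 and 13.5 CPM against 34.7 and 38.6 CPM, 1.18 ± 0.17 (adjusted p = 9.25e-05). Its partner ERAP2, TAPBP (tapasin), the non-classical HLA-F, and NLRC5, the transactivator of class I genes, differed by 0.93, 0.76, 0.86 and 0.72 and passed the test. HLA genes are alike and polymorphic, so the assignment of reads among them is uncertain.

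MHC class II genes, which keratinocytes show mainly after interferon gamma, started near the limit of counting in dark_3. Of 9 tested, 8 rose (median 3.14, and 3.13 with the 1 gene at 0 counts set to its bound). The number of calls was 4 without dark_3 a, 3 without dark_3 b, 3 without dark_42 b, and 5 without either blue_3 library. HLA-DRA (ENSG00000204287, chr6:32439842-32445046, plus strand) was at 0.634 and 0.720 CPM against 6.66 and 11.6 CPM, 3.71 ± 0.52 (adjusted p = 0.00018). CD74, the invariant chain that chaperones class II molecules, was at 0.476 and 0.432 CPM against 8.58 and 34.5 CPM, 5.51 ± 1.45 (adjusted p = 0.047). The 2 dark_42 libraries lay far apart there, and CD74 was called in 3 of the 12 fits with a library left out, those without dark_42 a, blue_42 a or blue_42 b (largest adjusted p 0.218). It was also lost with no filter on low counts, with the replicate block, without the 14-irradiation libraries and with only the 3 dark groups. HLA-DRB1 was at 0.793 and 1.01 CPM against 4.10 and 12.2 CPM, 3.14 ± 0.85 (adjusted p = 0.035), not called without dark_3 a, dark_3 b, blue_3 a, blue_3 b or dark_42 b. HLA-DMB, a chain of the peptide-loading dimer, had 3 counts against 33, a ratio of 9.40 (2.95 to 47.9), and HLA-DPA1 had 1 against 38, a ratio of 32.5 (5.49 to 1316). HLA-DMA, the other chain, was at 0.634 and 0.432 CPM against 2.43 and 3.38 CPM, 2.41 ± 0.56 (adjusted p = 0.0053), not called without dark_3 b or dark_42 b.

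Acute-phase and mucosal genes held several of the largest rises, and genes of the NF-kappaB list were higher as well. Of 19 acute-phase and complement genes tested, 12 rose and 0 fell (median 1.21), with 7 calls without dark_3 a. The promoters of LCN2 and BIRC3 are printed because both hold a match to the NF-kappaB motif, LCN2 as one of the 15 largest rises and BIRC3 as the largest rise of the NF-kappaB list. Matches are shown in capitals and were searched on both strands (same source and window as above).
LCN2, chr9:128149203-128149502, plus strand: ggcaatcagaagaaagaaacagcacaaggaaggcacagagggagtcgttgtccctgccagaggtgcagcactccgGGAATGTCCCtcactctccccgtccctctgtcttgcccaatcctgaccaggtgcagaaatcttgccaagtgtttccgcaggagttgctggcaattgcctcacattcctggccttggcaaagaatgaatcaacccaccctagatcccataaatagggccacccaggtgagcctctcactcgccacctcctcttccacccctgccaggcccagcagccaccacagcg
BIRC3, chr11:102317234-102317533, plus strand: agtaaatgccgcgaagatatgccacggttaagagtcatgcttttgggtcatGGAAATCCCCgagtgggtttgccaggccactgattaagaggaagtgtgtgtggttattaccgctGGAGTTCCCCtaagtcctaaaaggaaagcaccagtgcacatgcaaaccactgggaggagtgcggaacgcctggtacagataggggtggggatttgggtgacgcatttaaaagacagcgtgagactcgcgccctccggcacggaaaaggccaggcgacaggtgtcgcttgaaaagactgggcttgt
LCN2 holds 1 match, 175 to 166 bases before its start, and BIRC3 holds 2 between 199 and 126 bases before. The motif occurred in 7 of the 9 genes of the NF-kappaB list called higher (77.8%) and in 4 of the 8 not called that had a promoter (50%). It was found in 13.3% of all genes with a promoter and in 17.1% of the tested genes with one. Among the 15 largest rises, 9 had a promoter and 5 of these a match (55.6%). It occurred in 2 of the 7 called acute-phase genes with a promoter (28.6%).

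SAA1, serum amyloid A1 (ENSG00000173432, chr11:18266174-18269977, plus strand), was at 15.4 and 13.5 CPM early and 143 and 233 CPM late, 13.0-fold higher on the fitted scale, with a log2 difference of 3.70 ± 0.36 (adjusted p = 0.00037). SAA2, at 4.44 and 3.89 CPM against 61.1 and 108 CPM, differed by 4.34 ± 0.56 (adjusted p = 0.0028). The 2 genes are nearly identical, so reads could be split between them. LCN2, the iron-sequestering lipocalin (ENSG00000148346, chr9:128149071-128153455, plus strand), was at 43.8 and 46.7 CPM against 479 and 945 CPM, 3.98 ± 0.47 (adjusted p = 0.0021). C3, the central complement component, was at 17.9 and 18.4 CPM against 103 and 199 CPM, 3.05 ± 0.42 (adjusted p = 0.0035). In each of these 4 genes dark_42 b lay above dark_42 a, yet no early library came near either. SAA4 had 0 counts against 36, at least 10.3-fold higher against a floor of 3 counts over the group. The complement proteases CFI (1 count against 25, ratio 21.4, 3.50 to 877.3) and C1S (3 against 38, ratio 10.8, 3.44 to 54.8) were also called.

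Of 16 mucosal defence genes, 7 rose and 1 fell (median 1.03). Calls of a rise numbered 3 without dark_3 a, 1 without dark_3 b and 3 without dark_42 b, and the fall was lost when any 1 of the 4 dark libraries compared was left out. SLPI, an antiprotease of mucus, was at 42.2 and 40.0 CPM against 112 and 132 CPM, 1.57 ± 0.17 (adjusted p = 1.19e-05), with no overlap between groups. PI3, elafin, was at 2.06 and 1.15 CPM against 20.2 and 26.4 CPM, 3.86 ± 0.63 (adjusted p = 0.005), not called without dark_3 b or dark_42 b (adjusted p up to 0.0545). MUC4, a membrane mucin, was at 7.45 and 8.07 CPM against 37.7 and 56.8 CPM, 2.60 ± 0.44 (adjusted p = 0.0065), not called without dark_3 a or dark_3 b. WFDC2, MUC1 and CEACAM1 differed by 1.81, 1.18 and 0.92, and LYPD3, a surface protein of suprabasal keratinocytes, by -0.39. PIGR, which carries immunoglobulin A across epithelia, was singled out after its values were seen: it had 0 counts in dark_3 and was at 9.86 and 24.5 CPM in dark_42 (265 counts, at least 75.5-fold higher against the floor), yet its adjusted p was 0.1.

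In the NF-kappaB list, 9 of 19 tested genes rose and 0 fell (median 0.75), a count of 4, 5 and 5 without dark_3 a, dark_3 b and dark_42 b. BIRC3, an inhibitor of apoptosis that NF-kappaB induces, was at 55.6 and 46.4 CPM against 199 and 301 CPM, 2.29 ± 0.27 (adjusted p = 0.00043). NFKBIZ, a nuclear cofactor that selects part of the NF-kappaB response, was at 19.8 and 17.4 CPM against 51.5 and 61.4 CPM, 1.60 ± 0.18 (adjusted p = 6.09e-06). Feedback inhibitors were among the rises. NFKBIA (I-kappa-B alpha) was at 168 and 156 CPM against 247 and 299 CPM, 0.75 ± 0.16 (adjusted p = 0.0044), not called without dark_3 b or dark_42 b. TNFAIP3 (A20) differed by 0.87, its cofactor TNIP1 by 0.95, and TNFAIP2 by 1.37.

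Of 14 chemokine and prostaglandin genes, 8 rose and 2 fell (median 0.69). The rises numbered 2 without dark_3 a, 2 without dark_3 b, 3 without dark_42 b and 5 with DESeq2, and 1 fall was left when any 1 of the 4 dark libraries was left out, with DESeq2 or with a filter at 5 CPM. CCL22, a chemokine for T cells, was at 1.11 and 0.864 CPM against 5.64 and 10.7 CPM, 3.03 ± 0.45 (adjusted p = 0.00015). CCL2, which attracts monocytes, was at 13.6 and 11.8 CPM against 38.4 and 64.6 CPM, 2.02 ± 0.44 (adjusted p = 0.021), lost without dark_3 a, dark_3 b or dark_42 b. CXCL8, which attracts neutrophils, was low throughout at 1.74 and 2.30 CPM against 5.64 and 5.72 CPM, 1.47 ± 0.35 (adjusted p = 0.0064), lost without dark_3 a. CXCL3 and CCL28 differed by 2.35 and 1.80, and CXCL5 had 2 counts against 25, a ratio of 10.7 (2.66 to 93.1). PTGS1, a cyclooxygenase, fell from 7.45 and 7.78 CPM to 2.43 and 2.21 CPM, -1.71 ± 0.29 (adjusted p = 0.0004), and CCL26, eotaxin-3, differed by -1.98.

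The interleukin-1 family did not move one way: 3 of 12 rose and 2 fell (median 0.02). IL1A was at 4.91 and 4.03 CPM against 17.4 and 11.96 CPM, 1.72 ± 0.27 (adjusted p = 0.00018), and IL1B at 34.6 and 29.8 CPM against 52.3 and 50.1 CPM, 0.67 ± 0.14 (adjusted p = 0.002), the latter not called without dark_3 b. CASP1, which activates IL1B, differed by 0.59. The receptor IL1R1 and the antagonist IL1RN differed by -0.74 and -0.44. Neither fall was called without dark_3 a or dark_3 b, 1 was left without dark_42 b or with DESeq2, and 1 rise was left without dark_3 b.

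**Figure D2:**
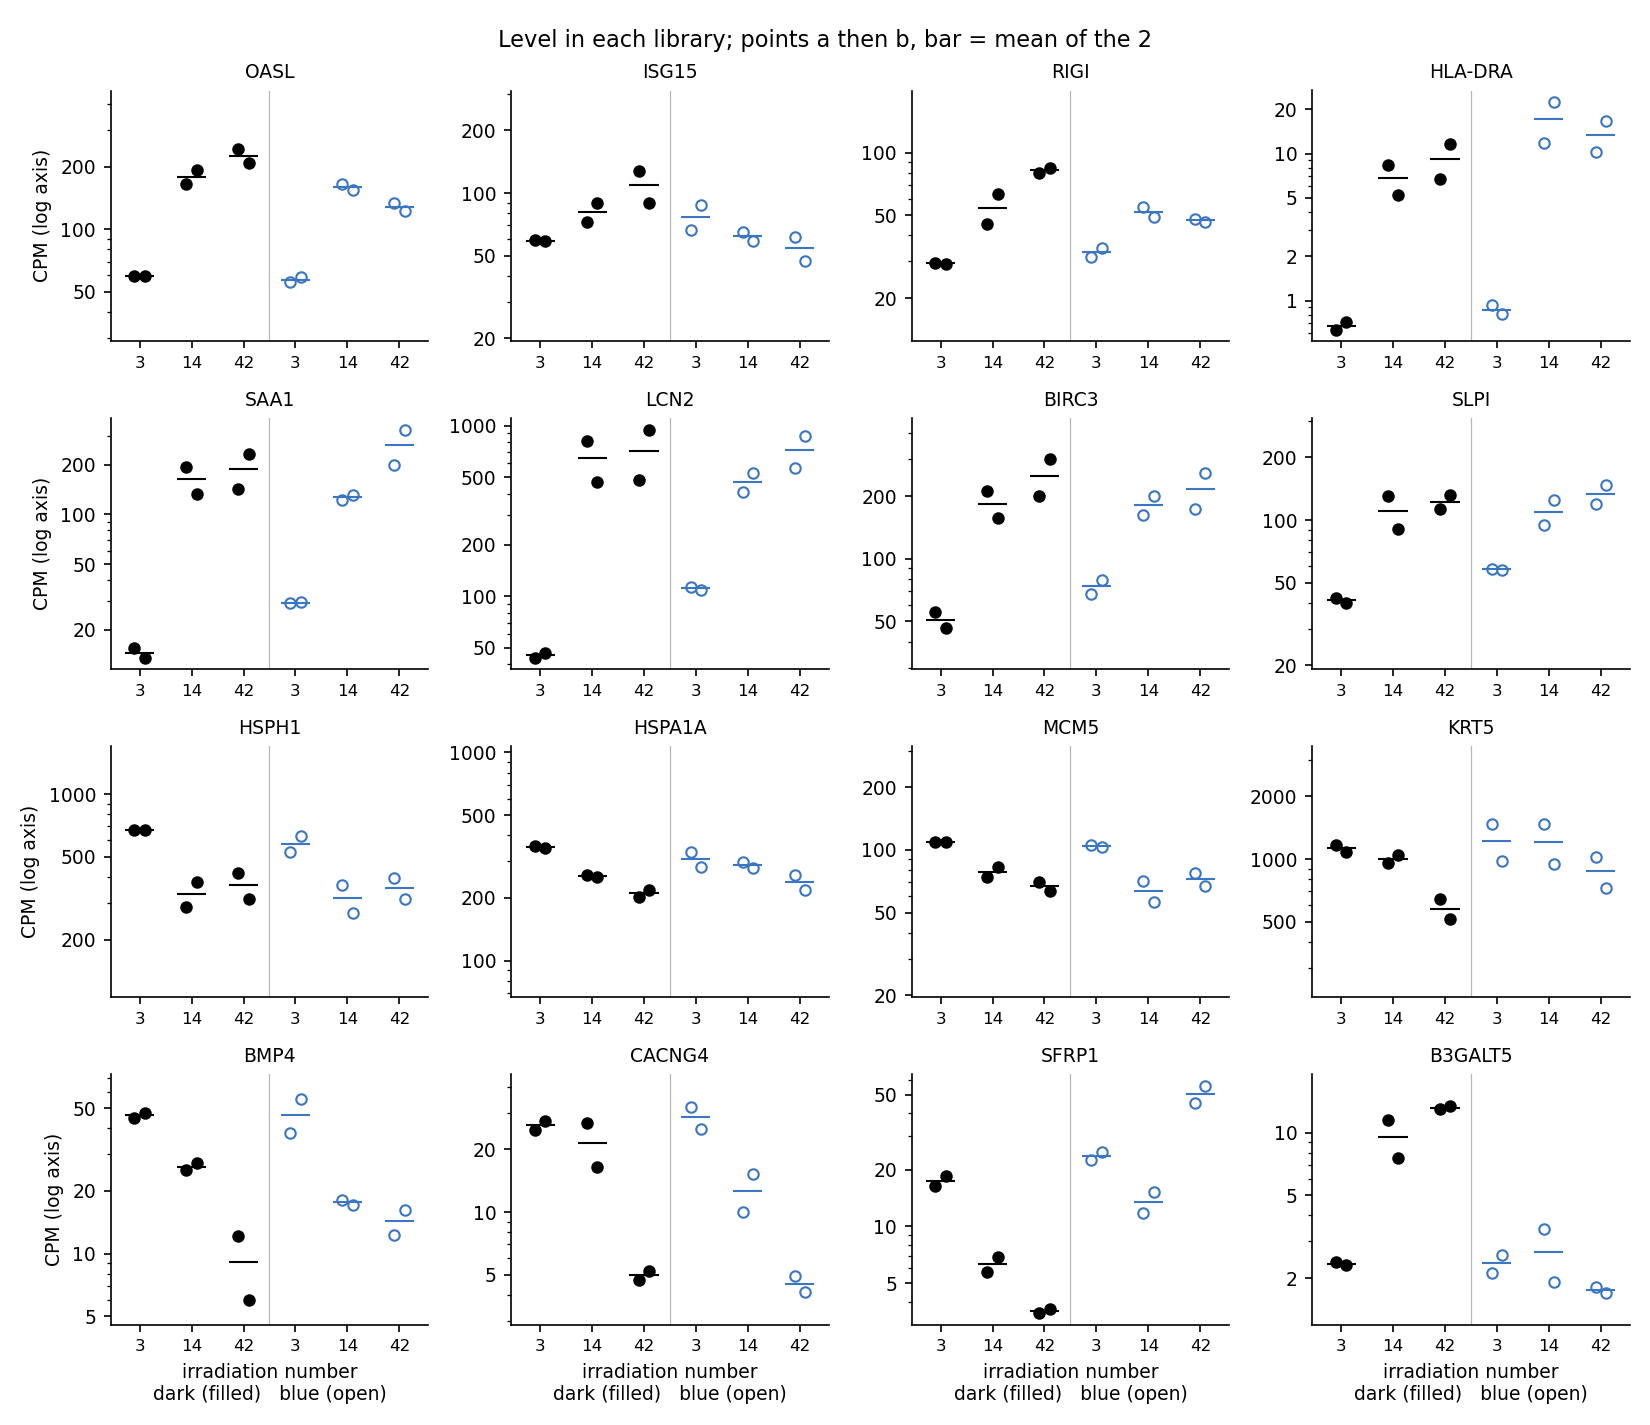
Level of 16 genes in each of the 12 libraries (vertical axes, CPM, log scale) by irradiation number (horizontal axis), dark libraries filled and irradiated libraries open, with a bar at the mean of the 2 libraries. In the dark columns SAA1 and LCN2 step up by 14 and stay there, and BMP4, CACNG4 and SFRP1 are lowest at 42. B3GALT5 is higher at 42 than at 3 in the dark columns but not in the irradiated ones.

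Chaperones of the heat shock response were lower in dark_42. Of 28 tested, 14 fell and 0 rose (median -0.35). The count was 7 without dark_3 a, 8 without dark_3 b and 7 without dark_42 b. The promoters of HSPA1A and HSPA8 are printed to show the heat shock element, with matches to GAANNTTC on either strand in capitals (same source and window).
HSPA1A, chr6:31815293-31815592, plus strand: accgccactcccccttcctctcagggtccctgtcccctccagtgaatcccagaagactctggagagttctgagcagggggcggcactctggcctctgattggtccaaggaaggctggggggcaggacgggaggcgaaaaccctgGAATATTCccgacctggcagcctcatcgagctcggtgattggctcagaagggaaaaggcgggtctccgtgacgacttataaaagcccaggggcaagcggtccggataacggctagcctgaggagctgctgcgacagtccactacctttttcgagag
HSPA8, chr11:123062087-123062386, minus strand: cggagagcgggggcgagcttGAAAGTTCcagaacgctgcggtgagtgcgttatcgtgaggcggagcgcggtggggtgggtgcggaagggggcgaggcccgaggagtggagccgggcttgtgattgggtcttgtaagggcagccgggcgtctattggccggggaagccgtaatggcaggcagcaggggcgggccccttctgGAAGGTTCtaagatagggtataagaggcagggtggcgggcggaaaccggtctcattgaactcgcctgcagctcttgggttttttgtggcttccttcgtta
HSPA1A holds 1 match, 106 to 99 bases before its start, and HSPA8 holds 2. The element occurred in 10 of the 14 lower chaperones (71.4%) and in 3 of the 11 not called that had a promoter (27.3%). It was found in 8.21% of all genes with a promoter and in 6.51% of the tested genes with one.

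HSPH1, which recharges HSP70 chaperones, was at 672 and 673 CPM early and 417 and 313 CPM late, -0.88 ± 0.18 (adjusted p = 0.0053). HSPA8, the constitutive HSP70, was at 312 and 302 CPM against 197 and 157 CPM, -0.79 ± 0.16 (adjusted p = 0.0037). The 2 early libraries lay close together in both genes and well above the late ones, but neither was called without dark_42 b (adjusted p 0.0612 and 0.0550). HSPA1A, the inducible HSP70, was at 354 and 347 CPM against 202 and 219 CPM, -0.73 ± 0.12 (adjusted p = 0.00022). Its near-identical copy HSPA1B was at 88.3 and 81.7 CPM against 47.4 and 54.8 CPM, and how reads split between the copies is uncertain. The cochaperones DNAJA4 and AHSA1 fell as well, DNAJA4 from 29.2 and 29.7 CPM to 16.9 and 14.4 CPM, -0.91 ± 0.15 (adjusted p = 0.00024). AHSA1 was at 153 and 145 CPM against 93.4 and 80.4 CPM, -0.78 ± 0.12 (adjusted p = 0.00019). HSP90AA1, the most abundant of those named, was at 4505 and 4566 CPM against 3369 and 2528 CPM, -0.62 ± 0.18 (adjusted p = 0.027), and was not called without dark_3 a, dark_3 b or dark_42 b (adjusted p up to 0.236).

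Other stress lists held fewer calls. In the list of the unfolded protein response and ATF4, 3 of 23 rose and 3 fell (median -0.02): DDIT4 (1.46), an inhibitor of mTORC1, the stress factors ATF3 (0.64) and DDIT3 (0.60), and on the lower side SDF2L1 (-0.55), ATF4 (-0.44) and the lectin chaperone CANX (-0.40). None of the 3 falls was called without dark_3 a, dark_3 b or dark_42 b, while 5 falls were called without dark_42 a, and the rises numbered 1, 0 and 1 without dark_3 a, dark_3 b and dark_42 b. Of 22 NRF2 targets, 4 fell and 0 rose (18.2%, against 17.7% of all genes in either direction and 8.26% lower, median -0.08). Of these falls 1 was left without dark_3 a or without dark_3 b, and 2 falls stood beside 2 rises without dark_42 a. NQO1, a quinone reductase, was at 138 and 142 CPM against 72.1 and 59.2 CPM, -1.09 ± 0.18 (adjusted p = 0.00078). AKR1B10 and GCLM differed by -1.02 and -0.63. The list of metallothioneins, which bind zinc and copper, also holds MTF1 and SLC30A1, which are not metallothioneins. Of its 6 tested genes, 2 fell: MT1E was at 619.8 and 585 CPM against 327 and 188 CPM, -1.23 ± 0.28 (adjusted p = 0.018), and MT2A differed by -0.40. Neither was called without dark_3 a or without dark_3 b, MT1E was also lost without the 14-irradiation libraries, and metallothioneins resemble each other in sequence.

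The called DNA replication genes were all on the lower side. Of 45 genes of G1/S and replication, 8 fell and 0 rose (median -0.31), and 5 had a difference above 0. The share called was 17.8%, against 17.7% of all tested genes in either direction and 8.26% lower. The count moved with the libraries and settings: it was 1 without dark_3 a, 2 without dark_3 b, 2 without dark_42 b, 14 without blue_14 b, 14 with only the 4 libraries compared, 15 without the 14-irradiation libraries and 17 with no filter on low counts. MCM5, a subunit of the replicative helicase, was at 109.7 and 109.6 CPM against 70.3 and 63.6 CPM, -0.71 ± 0.12 (adjusted p = 0.00047). MCM2, of the same complex, was at 144 and 132 CPM against 92.5 and 72.3 CPM, -0.74 ± 0.16 (adjusted p = 0.0052), not called without dark_3 a or dark_42 b. FEN1, a flap nuclease, GINS2 and GINS4, which join the helicase, and RFC4, a clamp loader, differed by -0.69, -0.57, -0.58 and -0.41. PCNA, the sliding clamp, was at 214 and 195 CPM against 219 and 161 CPM, -0.11 ± 0.16 (adjusted p = 0.7), with overlapping groups, and its sign turned (0.098) without dark_42 b. An E2F motif (TTT, then C or G, then GCGC) was found in the promoters of MCM2 and MCM7 (the latter named after its values were seen). These were 2 of the 6 lower genes with a promoter (33.3%), against 1.40% of all genes with a promoter and 2.56% of the tested genes with one.

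Among 36 mitotic genes, 5 fell and 0 rose (13.9%, against 17.7% of all genes in either direction and 8.26% lower, median -0.10), with 3 falls without dark_3 a or without dark_42 b. UBE2C, which marks mitotic cyclins for degradation, was at 146 and 134 CPM against 68.1 and 72.2 CPM, -0.99 ± 0.16 (adjusted p = 0.00066). CDC20, an activator of the same ligase, differed by -0.92, CDC25C by -0.54, AURKB by -0.49 and PLK1 by -0.46, the last 2 being mitotic kinases. MKI67, the antigen used to count cycling cells, was at 905 and 993 CPM against 1176 and 1016 CPM, 0.21 ± 0.14 (adjusted p = 0.31), with no overlap between groups. CDK4, the kinase of D cyclins, fell from 153 and 150.2 CPM to 95.9 and 84.5 CPM, -0.75 ± 0.13 (adjusted p = 0.0006). CDKN1A (p21) was at 44.4 and 44.2 CPM against 68.4 and 75.4 CPM, 0.70 ± 0.16 (adjusted p = 0.0062), and was not called without dark_3 a, dark_3 b or dark_42 b. CDKN2A (p16 and ARF) was at 44.2 and 47.5 CPM against 50.5 and 55.0 CPM, 0.20 ± 0.15 (adjusted p = 0.38). Of 21 p53 targets, 3 rose and 2 fell (median 0.03): beside CDKN1A, the apoptosis genes BBC3 (1.56) and FAS (1.20), against GADD45A (-0.45) and AEN (-0.41). Both falls were lost without dark_3 a, dark_3 b or dark_42 b, and with DESeq2, and 5 rises were called with no filter on low counts or with only the 4 libraries compared. Of 15 senescence-associated genes, 3 rose and 0 fell (20%, against 17.7% of all genes in either direction and 9.47% higher, median 0.37). Among the rises were IGFBP7 by 0.80 and CXCL8 as above, and 1 of the 3 was called without dark_3 a.

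**Figure D3:**
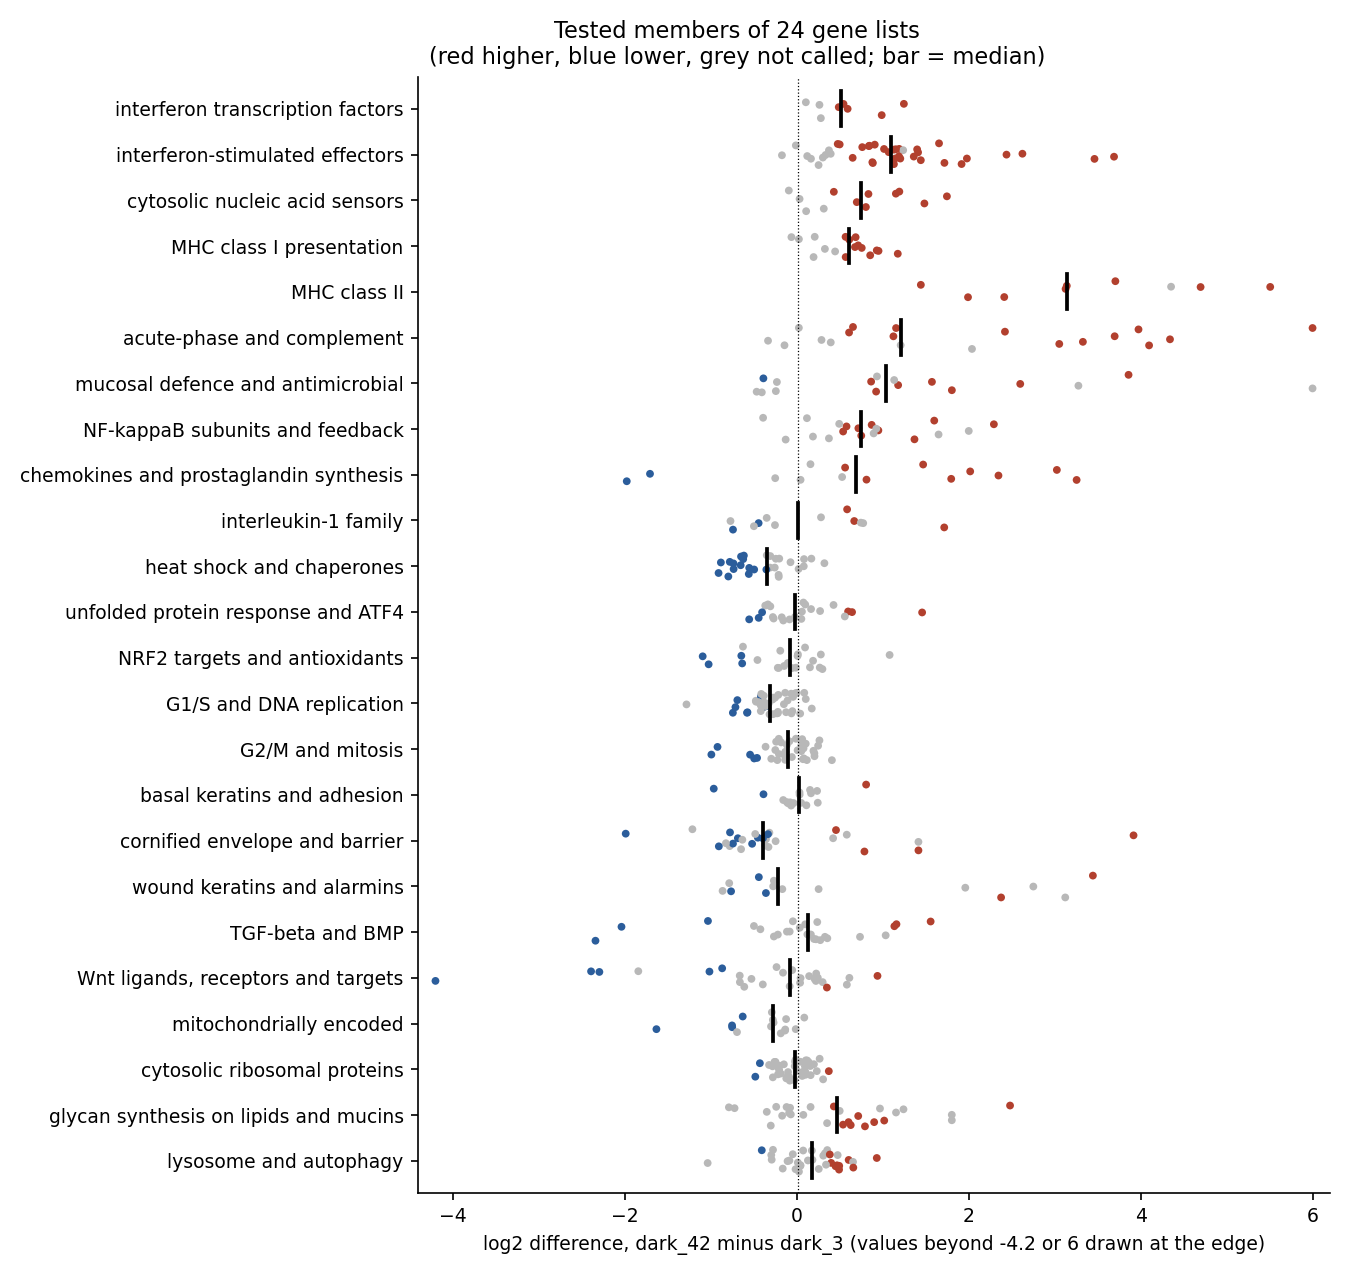
Log2 difference between dark_42 and dark_3 (horizontal axis) for the tested members of 24 of the 40 gene lists (rows), with called genes in red (higher) and blue (lower), uncalled genes in grey, a bar at each list's median and a dotted line at the median of all tested genes. The 3 members beyond -4.2 or 6 are drawn at the edge, and fitted differences of genes with few counts are no bounds. The chaperone bar sits at -0.35 and that of the antiviral effectors at 1.10.

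Basal keratins and adhesion genes were called about as often as all genes: 1 of 17 rose and 2 fell (17.6%, against 17.7% of all genes, median 0.03). KRT5, the basal keratin, was at 1173 and 1080.4 CPM against 641 and 515 CPM, -0.96 ± 0.25 (adjusted p = 0.027). Its partner KRT14 was at 672 and 727 CPM against 503 and 568 CPM, -0.39 ± 0.13 (adjusted p = 0.039). The groups did not overlap in either keratin, yet leaving out any 1 of the 4 dark libraries compared ended both calls, and leaving out dark_14 b ended that of KRT5. ITGA2, the collagen-binding integrin chain, rose from 232 and 224 CPM to 374 and 424 CPM, 0.81 ± 0.12 (adjusted p = 0.00015). TP63, the master factor of stratified epithelium, was at 48.2 and 41.9 CPM against 59.0 and 53.1 CPM, 0.32 ± 0.14 (adjusted p = 0.11). Of 24 keratinocyte transcription factors, 4 rose and 2 fell (median 0.08). KLF4, a factor of barrier formation, was at 14.4 and 14.7 CPM against 32.4 and 32.4 CPM, 1.15 ± 0.16 (adjusted p = 6.99e-05). PRDM1 and GATA3 differed by 1.75 and 0.64, and TFAP2C and NOTCH3 by -0.62 and -1.03. The rises numbered 2 without dark_3 a, 1 without dark_3 b and 1 without dark_42 b.

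In the cornified envelope and barrier list, 9 of 27 tested genes fell and 4 rose (median -0.39). The falls numbered 4 without dark_3 a, 4 without dark_3 b and 4 without dark_42 b, and the rises 1, 0 and 1, with 2 rises without dark_42 a and 1 with DESeq2. KRT4, a keratin of moist stratified epithelia, was at 388 and 438 CPM against 126 and 82.7 CPM, -1.99 ± 0.21 (adjusted p = 7.62e-05). Its partner KRT13 was at 3131 and 3297 CPM against 1956 and 2047 CPM, -0.68 ± 0.16 (adjusted p = 0.0078), not called without dark_3 b or dark_42 b. IVL, involucrin, was at 106 and 106 CPM against 68.8 and 86.2 CPM, -0.45 ± 0.15 (adjusted p = 0.044), not called without dark_3 a, dark_3 b or dark_42 a, with the replicate block, with a filter at 5 CPM or with non-robust estimation. FLG, filaggrin, was at 57.1 and 66.1 CPM against 51.2 and 34.9 CPM, -0.52 ± 0.16 (adjusted p = 0.028), not called without dark_3 a, dark_3 b or dark_42 b. The protease KLK5, the ceramide synthase CERS3 and sciellin (SCEL) differed by -0.74, -0.77 and -0.90. On the higher side were the transglutaminase TGM1 (0.79), the lipid elongase ELOVL4 (1.42), cystatin A (CSTA, 0.46) and CASP14, with 1 count against 22 (ratio 18.8, 3.04 to 776). The suprabasal keratins did not pass the test: KRT1 was at 29.6 and 28.5 CPM against 6.15 and 19.0 CPM, -1.21 ± 0.73 (adjusted p = 0.32), and KRT10 at 151 and 153 CPM against 117 and 127 CPM, -0.32 ± 0.19 (adjusted p = 0.28). In the list of simple epithelial keratins, which also holds hair keratins, KRT8 (-0.58) and KRT81 (-2.13) fell among 8 tested. KRT81, a hair keratin, was at 54.1 and 52.0 CPM against 9.35 and 14.8 CPM and was called in 4 of the 12 fits, those without dark_14 a, dark_14 b, blue_42 a or blue_42 b. The replicate block, a fit of the 3 dark groups alone and one with no filter on low counts ended its call too. KRT8 was not called without dark_3 a or dark_42 b.

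Alarmins and serpins went both ways. S100A9, a calcium-binding alarmin, was at 19.0 and 19.6 CPM against 142 and 279 CPM, 3.45 ± 0.70 (adjusted p = 0.02), and S100P at 24.6 and 26.9 CPM against 108 and 160.5 CPM, 2.38 ± 0.46 (adjusted p = 0.016). S100A10, S100A16 and S100A14 differed by -0.76, -0.44 and -0.36. None of these 5 of 14 wound keratins and alarmins was called without dark_3 a, dark_3 b or dark_42 b, while DESeq2 called 4 rises. S100A9 was also lost with only the 3 dark groups. Of 9 clade B serpins, 2 rose and 3 fell, with 0 rises without dark_3 a, dark_3 b or dark_42 b and 1 fall without dark_3 a. SERPINB7, an inhibitor found in cornified layers, was at 33.3 and 31.0 CPM against 12.4 and 6.89 CPM, -1.73 ± 0.22 (adjusted p = 3.08e-05). SERPINB2 and SERPINB5 differed by -0.86 and -0.40, and SERPINB1 by 1.03. SERPINB4 was at 0.159 and 0.720 CPM against 6.15 and 17.0 CPM, 4.62 ± 1.24 (adjusted p = 0.046). It was called in 3 of the 12 fits, those without dark_42 a, blue_42 a or blue_42 b, and shares much of its sequence with SERPINB3. It was also lost with no filter on low counts and without the 14-irradiation libraries. Of 32 junction genes, 3 rose and 4 fell (median -0.12). The gap junction gene GJA1 differed by -1.08, the tight junction genes CGN, CLDN1 and TJP1 by 0.67, 0.38 and -0.53, N-cadherin (CDH2) by -0.69 and the desmosomal gene PERP by -0.34. The rises were lost without dark_3 b and 1 was left without dark_42 b, 2 falls were left without either of these, and 7 falls were called with no filter or with only the 4 libraries compared.

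Signalling genes held several of the deepest falls. Of 26 TGF-beta and BMP genes, 3 rose and 3 fell (median 0.14). BMP4 was at 45.03 and 47.1 CPM against 12.2 and 5.98 CPM, -2.34 ± 0.25 (adjusted p = 3.65e-05), and BMP7 at 68.3 and 70.4 CPM against 19.1 and 14.7 CPM, -2.04 ± 0.21 (adjusted p = 1.19e-05). Both ligands were separated between groups. FST (follistatin, an antagonist) differed by -1.03, while BMP3 differed by 1.16 and the coreceptor TGFBR3 by 1.56. Without dark_42 a, 5 genes of the list rose. In the Wnt list, 5 of 27 fell and 2 rose (median -0.08). SFRP1, a secreted Wnt antagonist, was at 16.3 and 18.6 CPM against 3.46 and 3.64 CPM, -2.29 ± 0.21 (adjusted p = 4.47e-07). PTK7, a coreceptor, was at 96.4 and 87.4 CPM against 45.3 and 45.6 CPM, -1.01 ± 0.15 (adjusted p = 0.0001). WNT11 had 42 counts in dark_3 and 0 in dark_42, at least 16.4-fold lower against the floor. SP5, a Wnt target, and DKK3 differed by -2.39 and -0.87, and WNT4 and TCF7L2 by 0.94 and 0.35. The Wnt rises did not both hold with RLE scaling (1 left) or DESeq2 (1 left, beside 3 falls), nor the falls with a filter at 5 CPM (3 left), and neither rise was called without dark_3 a or without dark_42 b.

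Among 21 genes of EGFR ligands and ERK feedback, 5 rose and 0 fell (median -0.04): SPRY1 (1.45) and DUSP5 (1.08), both ERK inhibitors, HBEGF (0.74), BTC (1.49) and EGFR itself (0.36). The count was 1, 3 and 2 without dark_3 a, dark_3 b and dark_42 b. Of 22 immediate early genes, 9.09% were called (17.7% of all genes): ATF3 rose, at 21.1 and 18.6 CPM against 31.0 and 31.0 CPM, 0.64 ± 0.16 (adjusted p = 0.0079), and CCN1 fell (-0.93); CCN1 was not called without dark_3 a, dark_3 b, dark_14 b or dark_42 b, nor was ATF3 without dark_3 b.

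Of 22 mesenchymal and matrix genes, 6 rose and 5 fell (median -0.02). THBS1, thrombospondin 1, was at 251 and 245 CPM against 101 and 69.3 CPM, -1.54 ± 0.20 (adjusted p = 0.00028), and TNC, tenascin C, at 7.13 and 5.62 CPM against 0.768 and 1.30 CPM, -2.60 ± 0.37 (adjusted p = 7.46e-05). The contractile genes TAGLN, MYL9 and TPM1 differed by -1.73, -1.20 and -0.94. On the higher side, TPM2 differed by 1.12, the matrix genes FBN1, LOXL2 and SPARC by 1.78, 1.66 and 0.94, ACTA2 by 1.88, and TWIST1 had 3 counts against 23 (ratio 6.55, 1.98 to 34.1). Rises numbered 2, 3 and 2 without dark_3 a, dark_3 b and dark_42 b, and falls 3 without dark_3 a, dark_42 a or dark_42 b. Of 23 protease genes, 4 rose and 4 fell (median 0.18). PLAT, the tissue plasminogen activator, was at 10.3 and 7.49 CPM against 51.1 and 147 CPM, 3.48 ± 0.82 (adjusted p = 0.033), not called without dark_3 a, dark_3 b, blue_3 a, blue_3 b or dark_42 b, nor with no filter on low counts, without the 14-irradiation libraries or with only the 3 dark groups. PLAU and MMP14 differed by 1.10 and 0.63, and ADAMTS1, MMP2, ADAM19 and PLAUR by -1.18, -0.86, -0.58 and -0.52. No protease rise was called without dark_3 a, dark_3 b or dark_42 b, and 2 falls were left without any 1 of these.

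Metabolic genes changed in part. Of 30 hypoxia and glycolysis genes, 6 rose and 3 fell (median 0.19). GAPDH, the glycolytic enzyme often used as a reference gene, was at 2072 and 2202 CPM against 1327 and 1390.3 CPM, -0.65 ± 0.12 (adjusted p = 0.00066). PKM and GPI, also glycolytic, differed by -0.60 and -0.38. VEGFA, ADM, ALDOC, HK1 and BNIP3L differed by 0.74, 0.57, 0.85, 0.43 and 0.41, and EGLN3 had 1 count against 20 (ratio 17.1, 2.73 to 708.5). The rises numbered 2, 1 and 1, and the falls 1, 1 and 1, without dark_3 a, dark_3 b and dark_42 b. Of 19 fatty acid genes, 5 rose and 1 fell (median 0.18). SCD, the stearoyl-CoA desaturase, was at 572 and 583 CPM against 932 and 982 CPM, 0.73 ± 0.11 (adjusted p = 0.00015). ACSL5, ELOVL7, ACSS2 and FADS1 differed by 1.89, 1.76, 0.85 and 0.45, and FABP5, an epidermal fatty acid carrier, by -1.33. Of these rises 1, 2 and 2 were called without dark_3 a, dark_3 b and dark_42 b. Among 24 cholesterol synthesis genes, 2 fell and 0 rose (8.33%, against 17.7% of all genes in either direction and 8.26% lower). The falls included MVK (-0.52), a kinase of the mevalonate pathway, and neither was called without dark_3 a, dark_3 b or dark_42 b.

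Of 15 mitochondrially encoded genes, 4 fell and 0 rose (median -0.28), with 1 left without dark_3 a and 0 without dark_42 b. MT-RNR1, the small ribosomal RNA, was at 7420.4 and 7577 CPM against 4622 and 4289 CPM, -0.75 ± 0.20 (adjusted p = 0.022), a call that ended when any 1 of the 4 dark libraries compared was left out, and without the 14-irradiation libraries. MT-ND1 and MT-ND2, subunits of complex I, differed by -0.63 and -0.75. MT-ND6, the one such subunit on the light strand, was at 201 and 197 CPM against 72.9 and 55.8 CPM, -1.63 ± 0.28 (adjusted p = 0.0046), not called without dark_42 b. The sources used here do not give the strand setting of the counting, so reads of the opposite strand cannot be told apart in MT-ND6. Mitochondrial genes took 14.5% and 13.7% of counts in dark_3 and 12.6% and 12.4% in dark_42. Of 42 ribosomal protein genes, RPS9 rose (0.37) and RPS4X (-0.48) and RPL30 (-0.43) fell (7.14% called, against 17.7% of all genes); the rise was not called with RLE scaling, DESeq2, the replicate block, non-robust estimation or only the 4 libraries compared, and none of the 3 without dark_3 a, dark_3 b or dark_42 b.

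Glycan synthesis genes rose in 9 of 28 tested and fell in 0 (median 0.47), with 4, 3 and 4 rises without dark_3 a, dark_3 b and dark_42 b. B3GALT5, which builds type 1 chains, was at 2.38 and 2.30 CPM against 12.9 and 13.4 CPM, 2.48 ± 0.28 (adjusted p = 6.07e-06), with libraries of each group nearly equal. B4GALT5 and UGCG, which start glycosphingolipids, differed by 1.02 and 0.79, and ST6GALNAC2, B3GNT3 and B3GNT5 by 0.90, 0.72 and 0.63. Of 34 lysosome and autophagy genes, 9 rose and 1 fell (median 0.18). OPTN, an autophagy receptor, was at 126 and 140.1 CPM against 252 and 257 CPM, 0.93 ± 0.13 (adjusted p = 5.26e-05), and SQSTM1 (p62) at 391 and 427 CPM against 659 and 633 CPM, 0.66 ± 0.11 (adjusted p = 0.00027). Both receptors were separated between groups. GABARAPL1, NBR1 and PSAP differed by 0.50, 0.49 and 0.47, and BECN1 by -0.41. The rises numbered 3, 2 and 2 without dark_3 a, dark_3 b and dark_42 b.

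The 15 largest rises and 15 largest falls above 10 CPM held further genes outside these lists. Among the rises called in every fit with a library left out, that of FRMD3, a FERM-domain protein, was largest, from 2.38 and 1.73 CPM to 35.6 and 58.3 CPM, 4.51 ± 0.59 (adjusted p = 0.002). NEURL3 was at 1.59 and 1.58 CPM against 12.9 and 23.0 CPM, 3.49 ± 0.55 (adjusted p = 0.0021). GDA, guanine deaminase, was at 0.951 and 2.45 CPM against 10.5 and 17.7 CPM, 3.01 ± 0.53 (adjusted p = 0.0031). CTSS, the protease that cleaves the invariant chain of MHC class II, was at 5.07 and 6.19 CPM against 25.6 and 49.0 CPM, 2.72 ± 0.47 (adjusted p = 0.0067), and EXOC3L4 differed by 2.82. Neither of the last 2 was called without dark_3 a or without dark_3 b. The largest of the 15 falls was that of CACNG4, a calcium channel gamma subunit (ENSG00000075461, chr17:66964910-67033398, plus strand), at 24.7 and 27.4 CPM against 4.74 and 5.20 CPM, -2.39 ± 0.24 (adjusted p = 1.28e-06). SPON2, a secreted matrix protein, was at 37.4 and 38.5 CPM against 9.48 and 8.97 CPM, -2.04 ± 0.19 (adjusted p = 5.24e-07). STMN3, a microtubule-destabilizing stathmin, was at 67.4 and 59.2 CPM against 21.0 and 18.2 CPM, -1.69 ± 0.13 (adjusted p = 8.41e-08). The amino acid transporter SLC7A8, the planar polarity gene PRICKLE1, and PCNX3 differed by -2.04, -1.995 and -1.72.

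The dark_14 libraries mostly lay between the 2 groups. Their mean was between the dark_3 and dark_42 means for 898 of the 1220 higher genes and for 788 of the 1064 lower genes. It was at or beyond dark_42 for 274 and 123, and at or beyond dark_3 on the other side for 48 and 153. These counts use the dark_3 and dark_42 means that chose the genes, so they are a description. Relative to the dark_3 mean, the antiviral effectors averaged 0.73 and 0.71 log2 units in dark_14 and 1.09 and 0.88 in dark_42, and acute-phase genes 1.20 and 0.97 against 1.36 and 1.64. The chaperones were at -0.44 and -0.25 in dark_14 and -0.32 and -0.48 in dark_42. The cornified list, in contrast, was at 0.31 and 0.10 in dark_14 and at -0.25 in both dark_42 libraries. Markers of other cells also stood apart in dark_14: the neuronal transcript SYT1 was at 23.5 and 17.8 CPM there against 2.06 to 3.84 CPM in the dark_3 and dark_42 libraries, CAMK2A at 37.5 and 23.8 CPM against 4.76 to 10.9 CPM, and HBB, a haemoglobin chain, at 28.7 CPM in dark_14 b against 0.634 to 1.15 CPM (single markers named after their values were seen). These markers were also raised in some irradiated libraries. SYT1 was at 6.76 and 11.7 CPM in blue_3, 7.76 and 8.12 CPM in blue_14, and 2.45 and 2.06 CPM in blue_42. CAMK2A was at 14.2 and 14.7 CPM, 21.0 and 21.5 CPM, and 5.29 and 9.83 CPM in the same groups, and HBB at 7.77 CPM in blue_3 b. The part of these markers in the dark_14, blue_14 and blue_3 values was not tested.

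**Figure D4:**
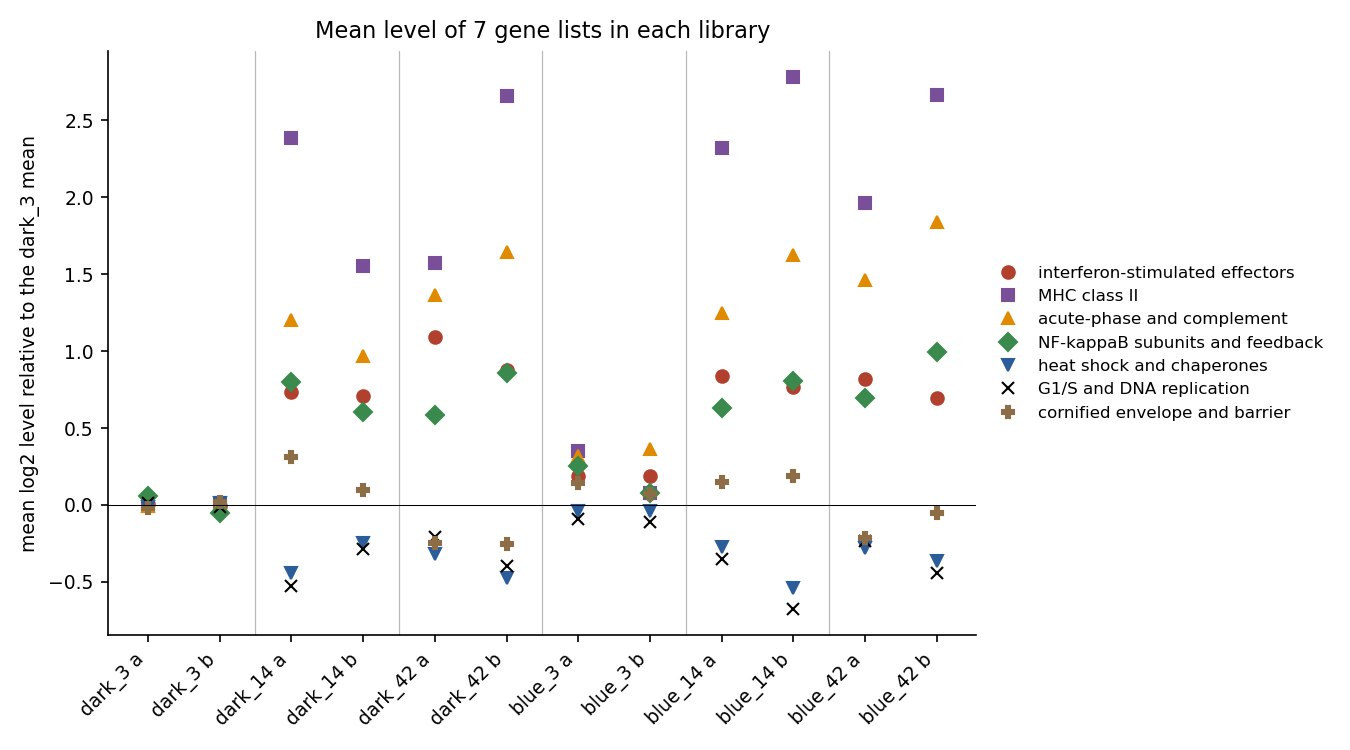
Mean log2 level of 7 gene lists in each of the 12 libraries (horizontal axis), relative to the mean of the dark_3 libraries (vertical axis). Antiviral effectors sit at 1.09 and 0.88 in dark_42 and 0.82 and 0.70 in blue_42, and chaperones at -0.32 and -0.48 against -0.28 and -0.37.

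The irradiated cultures span the same interval with 4 other libraries, so blue_42 against blue_3 asks which of the dark differences were also seen there. It called 1002 genes (7.78%), 566 higher (4.4%) and 436 lower (3.39%), and 416 genes without blue_3 a, 402 without blue_3 b and 258 without blue_42 b. Of the dark calls, 614 were called in the same direction in the irradiated cultures, 26.9% of the dark calls and 61.3% of the irradiated calls, and 8 in the opposite direction. Of the 1220 dark rises, 1115 had an irradiated difference above 0, and of the 1064 dark falls 907 had one below 0. The median difference of the dark rises was 0.73 in dark and 0.39 in irradiated cultures, and that of the dark falls -0.60 and -0.25; the dark values are those that chose the genes. Across the 8897 genes with a mean of at least 10 CPM in dark_3 or dark_42, the 2 differences had a Pearson correlation of 0.707, a description since genes are not independent replicates. A test of the difference itself called 56 genes (0.435%), 47 of them among the dark calls: 16 dark rises that were smaller or reversed with light and 31 dark falls that were smaller or reversed. That count was 4 without dark_3 a, 2 without dark_3 b, 3 without blue_3 b, 27 without dark_42 b, 4 without blue_42 a and 2 without blue_42 b, but 171 without blue_3 a and 209 without dark_42 a. SYT1 and CAMK2A stood higher in blue_3 than in blue_42, as given above, and the part of such markers in these comparisons was not tested.

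SAA1, HLA-DRA and LCN2 rose in both arms. SAA1 was at 28.9 and 29.5 CPM in blue_3 and 201 and 326 CPM in blue_42, a difference of 3.17 against 3.70 in dark, and HLA-DRA differed by 3.91 against 3.71; the test of the difference called neither (adjusted p = 0.76 and 0.96). LCN2 was already at 114 and 109 CPM in blue_3 and reached 564 and 871 CPM, 2.69 against 3.98 (adjusted p = 0.49 for the difference). Antiviral effectors showed 19 rises in the irradiated cultures (median 0.58) against 30 (1.10) in dark, and 3 of them (ISG15, OASL and IFIT2, the last named after its values were seen) differed between the intervals. ISG15 was at 66.2 and 87.1 CPM in blue_3 and 61.3 and 47.1 CPM in blue_42, so the irradiated minus dark difference was -1.38 ± 0.25 (adjusted p = 0.028). For OASL it was -0.76 ± 0.17 (adjusted p = 0.043), and for the sensor RIGI -0.98 ± 0.20 (adjusted p = 0.028). Chaperones showed 4 falls in the irradiated cultures against 14 in dark, with 0 called for the difference between intervals. SFRP1 went the other way with light, from 22.5 and 24.8 CPM to 45.2 and 55.7 CPM, and differed between intervals by 3.39 ± 0.26 (adjusted p = 2.52e-07). CACNG4 fell in both arms, to 4.91 and 4.13 CPM in blue_42.

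**Figure D5:**
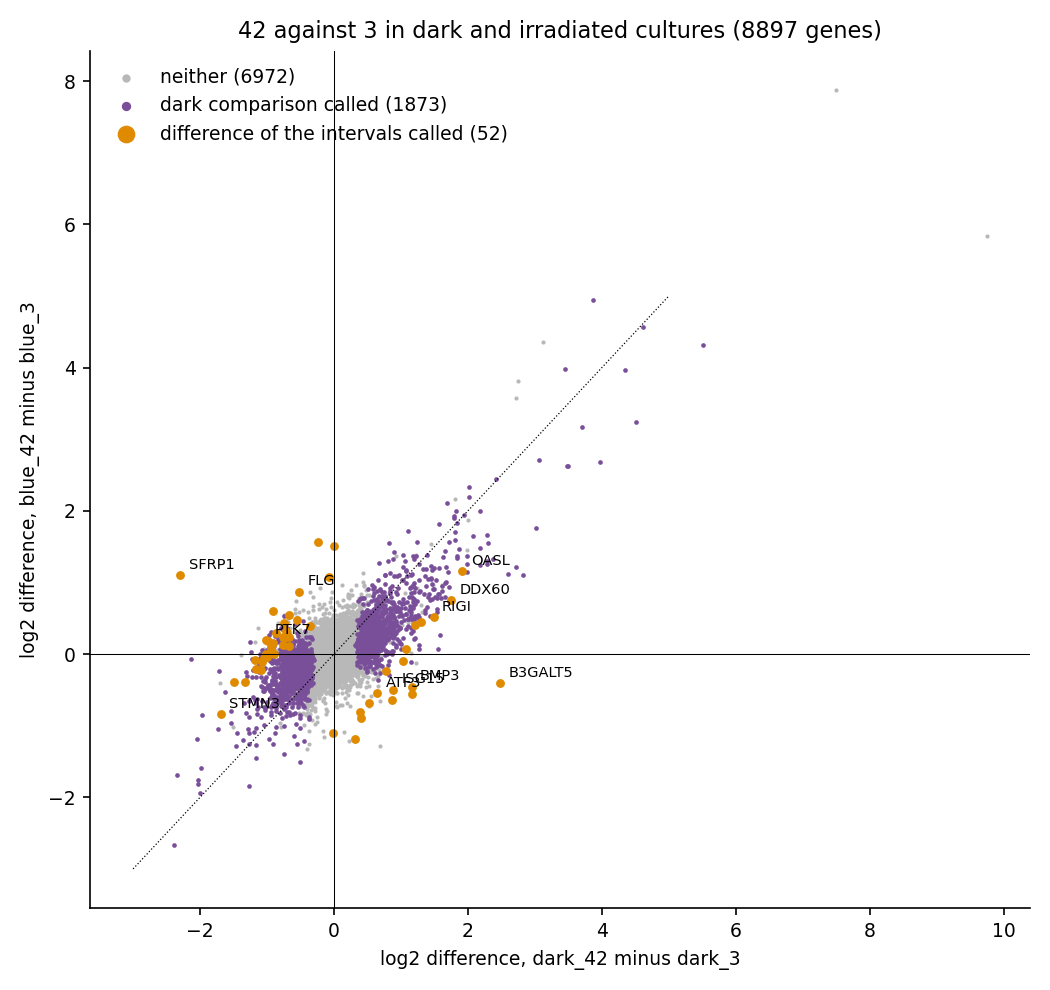
Log2 difference from 3 to 42 irradiations in dark (horizontal axis) and irradiated cultures (vertical axis) for 8897 genes, each point a gene, with a dotted line where the 2 are equal. Purple points are called in the dark comparison and orange points differ between the intervals; SFRP1 lies far above the line and ISG15 below it.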

How the data were processed

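HaCaT RNA was extracted with TRIzol and made into 3' libraries, per the labels' protocols. The authors deposited a table of whole-number counts per gene for 12 libraries, not normalized. STAR, featureCounts and build GRCh38 are named, per the submitters' processing notes; the sources used here give no versions, annotation release or strand setting. The table holds 45372 rows, of which 12878 passed edgeR's filterByExpr (minimum count 10, 6 groups) and held 99.9% of counts. They were scaled by TMM and fitted with edgeR 4.0.16's robust quasi-likelihood model over all 12 libraries (R 4.3.3), which leaves 6 residual degrees of freedom. Genes were called at a Benjamini-Hochberg adjusted p under 0.05 over all tested genes. CPM uses TMM library sizes, and standard errors come from the F statistic. Positions are from GENCODE 29 (GRCh38), and promoters from a RefSeq table of GRCh38.p14. Floors are 3 counts over a group; intervals are exact 95% and cover counting error only, as the reads carry no molecular identifiers that were counted. The test was run on simulated counts for dark_42 against dark_3 (12878 genes): it recovered 58.2% of 1.5-fold, 98.5% of 2-fold and 98.5% of 4-fold changes, with 15 false calls among 12678 unchanged genes. The changed genes were drawn from those averaging 10 CPM or more. Each gene had the same simulated spread in every group, whereas dark_3 and dark_42 differed in theirs (chi-square per degree of freedom 1.64 and 8.57). These rates therefore cannot be carried over to the real comparison.

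The gene lists, and the comparison itself, were chosen with earlier results of these data known. Named genes are the 15 largest called differences each way whose higher group averaged 10 CPM or more and whose libraries did not overlap, at most 6 called members each way of each list by size, and 28 genes named whatever their values; a few others are marked in the text as named after their values were seen, and some the rule chose are not reported here. DESeq2 1.42.0, RLE scaling, other filters, a replicate block, fewer libraries and leaving out each library were tried as alternatives. All of the 12 libraries had a group, and no value column lacked a sample.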

Additional observations from a re-analysis of the deposited data

Results flagged for a closer look

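The difference from 3 to 42 irradiations was itself different between irradiated and dark cultures in 56 genes, by the test of the blue minus dark difference (edgeR, all 12878 genes). Of the genes named by the rule, 11 were among them. SFRP1, the Wnt antagonist, fell in dark and was higher late in irradiated cultures, a blue minus dark difference of 3.39 (adjusted p = 2.52e-07). FLG differed by 1.39 (adjusted p = 0.013), the Wnt coreceptor PTK7 by 1.21 (adjusted p = 0.014) and STMN3 by 0.851 (adjusted p = 0.04), each of them lower late in dark. On the other side were genes higher late in dark. B3GALT5 differed by -2.89 (adjusted p = 0.013), BMP3 by -1.62 (adjusted p = 0.028), ISG15 by -1.38 (adjusted p = 0.028) and ATF3 by -1.19 (adjusted p = 0.019). The sensors DDX60 and RIGI differed by -0.990 and -0.976 (adjusted p = 0.025 and 0.028), and OASL by -0.764 (adjusted p = 0.043). In SFRP1 the dark libraries stood at 16.3 and 18.6 CPM early and 3.46 and 3.64 CPM late, and the irradiated ones at 22.5 and 24.8 CPM and 45.2 and 55.7 CPM. In B3GALT5 the dark libraries stood at 2.38 and 2.30 CPM and 12.9 and 13.4 CPM, and the irradiated ones at 2.12 and 2.59 CPM and 1.81 and 1.70 CPM. The count of 56 ranged from 2 (without dark_3 b or blue_42 b) to 209 (without dark_42 a) when 1 library was left out.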

How the results depend on the processing

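Leaving out 1 library gave 765 to 2574 called genes in the dark comparison (409 to 1316 higher, 356 to 1330 lower), 258 to 1224 in the irradiated one and 2 to 209 for the difference between them. The lowest dark counts came without dark_3 a (765, holding 33.1% of the 2284 calls), dark_42 b (833, 35.3%) and dark_3 b (840, 36.4%). DESeq2 called 1596 genes in dark, 768 of them higher, and 615 in the irradiated cultures. RLE scaling called 2309, no filter 2537, a filter at 5 CPM 2191, non-robust estimation 2293, only the 4 libraries compared 2407 and leaving out the 14-irradiation libraries 2585. The 3 dark groups alone, an alternative chosen after seeing the data, called 2409. For the difference between intervals, no filter called 288 genes. Deviations of same-lettered libraries correlated by over 0.1 in 4 of 15 pairs of groups (dark_42 with blue_42 0.405, blue_14 with blue_42 0.276, blue_14 with dark_42 0.221, blue_3 with dark_14 0.126) and by as little as -0.442 (dark_14 with dark_42) in the other pairs, so the letters were not taken as pairs; with the replicate block 2288 genes were called in dark, 96.2% of the 2284 among them, and 92 for the difference between intervals. For the named genes, 4361 alternative values kept direction and call, 536 kept the direction but lost the call, 3 gained it and 2 reversed: IFIT1 (-0.034 without dark_42 a, 0.575 without dark_42 b) and PCNA (0.098 without dark_42 b, -0.347 without dark_42 a). DESeq2 values without an adjusted p were counted among the kept ones. Beyond the losses named beside each gene, WFDC2, CEACAM1, CXCL5, DDIT4, RFC4, TGM1 and BTC were not called in the 3 dark groups alone. DHX58, CEACAM1, AKR1B10, GCLM, RFC4, AEN, TGM1, BTC and TCF7L2 were not called with only the 4 libraries compared, nor WFDC2, CEACAM1, DDIT4 and TCF7L2 with no filter. GCLM was also lost without the 14-irradiation libraries, TCF7L2 with RLE scaling and RFC4 with non-robust estimation. The causes were not tested.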
